A study of Mus musculus with 6 samples.

Results

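The nuclear genome codes for most subunits of the respiratory chain and of ATP synthase, and 83 genes with the symbols of such subunits were followed in liver macrophages with and without the transcription factor Egr2. They were chosen by gene symbol alone (Nduf with a subunit letter, Sdh, Uqcr, Cyc1, Cox4 to Cox8 and Atp5, without the copies marked -ps), from a table of 13886 genes. GENCODE vM21 lists 2 of them, Ndufb4c and Ndufs6b, as processed pseudogenes; both stay in the counts. By complex they were 38 genes of complex I, 4 of complex II, 9 of complex III, 15 of complex IV and 17 of complex V. Expression was measured by bulk RNA sequencing as TPM, a transcript level scaled by gene length and by the library total. All 83 passed the filter of the test, a mean of at least 1 TPM. Subunits coded by the mitochondrial genome were not analysed here.

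The cells were macrophages sorted from the liver of mice given CDA-HFD, a high-fat diet lacking choline that causes steatohepatitis with fibrosis. Egr2fl/fl mice (3 libraries) carry loxP sites in both copies of Egr2 and no Cre, and Lyz2cre/+.Egr2fl/fl mice (3 libraries) also carry Cre recombinase in one copy of Lyz2, which deletes Egr2 in cells of the myeloid lineage. The diet was common to both genotypes, and since the controls lack Cre, an effect of Cre or of the altered Lyz2 copy cannot be told apart from the loss of Egr2. The study sorted CD11b+, Ly6G-, Ly6C-low, F4/80+ cells from littermates, and the labels number the 3 libraries of each genotype as biological replicates; the labels give neither their age nor their weeks on the diet.

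The Egr2 gene itself (chromosome 10, bases 67535475 to 67542188, plus strand, GRCm38) was measured at 123, 120.2 and 126 TPM in Egr2fl/fl and 9.08, 9.64 and 10.5 TPM in Lyz2cre/+.Egr2fl/fl, in the order of replicates 1 to 3 that is kept throughout. It was thus 12.63-fold lower after Cre deletion, with a log2 difference of -3.53 ± 0.08 (SE) and an adjusted p of 5.75e-06 (limma on log2(TPM + 1), Benjamini-Hochberg over the 13777 genes tested). Reads recovered from the TPM steps came to at least 6497770 in the shallowest library and 8569062 in the deepest. General macrophage markers were present in every library, with summed levels of 28754 to 32191 TPM in Egr2fl/fl and 28943 to 29420 TPM in Lyz2cre/+.Egr2fl/fl over 15 genes, of which 5 were called higher and 1, Lyz2, lower in Lyz2cre/+.Egr2fl/fl. Markers of cell states and of some other cell types moved with genotype. In Lyz2cre/+.Egr2fl/fl, 12 of 14 Kupffer cell markers were higher and 9 of 12 hLAM (hepatic lipid-associated macrophage) markers lower. Of 20 endothelial markers 19 were higher and 1 lower, and their sum was 708 to 785 TPM against 1355 to 1504 TPM. Of 20 hepatocyte markers none passed the test, and their sum ran from 107 to 848 TPM in Egr2fl/fl, with the 848 in replicate 3, and from 136 to 328 TPM in Lyz2cre/+.Egr2fl/fl. No endothelial or hepatocyte marker was at 0 in any library. Of 9 stellate cell and fibroblast markers 1 was called higher and none lower, with sums of 119.9 to 131 TPM against 158 to 162 TPM. Of 5 T, NK and B cell markers 1 was called higher and 1 lower, with sums of 37.6 to 51.6 TPM against 59.3 to 66.7 TPM. Of 3 neutrophil markers 2 were called lower and none higher, with sums of 8.17 to 19.3 TPM against 3.44 to 6.67 TPM. Of these lists Klrb1c, S100a9 and Retnlg were at 0 in 1 library each. The part of other cells in the levels below was not tested, and in bulk samples fewer cells of a type and less RNA per cell cannot be told apart. Whether the macrophages themselves made part of the RNA of these markers was not tested either.

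Oxidative phosphorylation runs through these complexes in the inner mitochondrial membrane. Complex I (NADH dehydrogenase) and complex II (succinate dehydrogenase, also an enzyme of the TCA cycle) feed electrons to coenzyme Q, complex III passes them to cytochrome c, and complex IV (cytochrome c oxidase) passes them to oxygen. Complexes I, III and IV pump protons, and complex V (ATP synthase) lets the protons back to make ATP. In macrophages the balance between this route and glycolysis is known to differ between activation states, with alternatively activated cells relying more on respiration.

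Promoters of respiratory chain genes are known for sites of NRF1 and of ETS factors such as GABP, and the 250 bases before each annotated start were searched for short forms of these sites on both strands. RefSeq windows (GRCm38.p6) were matched for 66 of the 83 genes, 71 windows in all, and compared with 32851 windows of all genes. The NRF1 letters GCATGCGC stood in 8 windows, 11.3% against 2.26% of all windows. The ETS letters CCGGAAG stood in 12 windows, 16.9% against 6.91%. A YY1 form, AAGATGGC, stood in 1 window (Atp5j), 1.41% against 1.56%, and a form bound by EGR factors, GCGNGGGCG, stood in 1 window (Atp5g2), 1.41% against 4.70%. The NRF1 letters nearly read the same on the opposite strand, so a match on one strand often overlaps a match on the other. These are matches of letters and not shown binding sites.

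Windows of 3 genes are printed because they carry these letters before genes described below. Uqcrh (chr4:116075071-116075320, minus strand) had the ETS letters, Atp5k (chr5:108434400-108434649, minus strand) the NRF1 letters on both strands, and Cox6a1 (chr5:115348959-115349208, minus strand) both kinds. Capitals mark the matches, and each sequence reads 5′ to 3′ on the strand of the gene up to the base before its RefSeq start. By GENCODE vM21, used for the gene places in this text, Atp5k starts at base 108434448 and Cox6a1 at base 115348981. By that annotation nearly all of the NRF1 letters of Atp5k and the ETS letters of Cox6a1 lie inside the gene.
Uqcrh: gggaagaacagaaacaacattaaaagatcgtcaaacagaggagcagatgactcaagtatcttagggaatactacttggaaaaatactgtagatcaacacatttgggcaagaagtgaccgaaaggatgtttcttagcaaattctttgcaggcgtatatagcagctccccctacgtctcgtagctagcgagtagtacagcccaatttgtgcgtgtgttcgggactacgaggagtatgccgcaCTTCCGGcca
Atp5k: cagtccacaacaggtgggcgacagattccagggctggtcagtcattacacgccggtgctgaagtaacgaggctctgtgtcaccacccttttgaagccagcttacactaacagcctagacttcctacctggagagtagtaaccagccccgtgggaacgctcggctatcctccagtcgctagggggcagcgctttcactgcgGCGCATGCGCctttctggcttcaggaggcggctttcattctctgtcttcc
Cox6a1: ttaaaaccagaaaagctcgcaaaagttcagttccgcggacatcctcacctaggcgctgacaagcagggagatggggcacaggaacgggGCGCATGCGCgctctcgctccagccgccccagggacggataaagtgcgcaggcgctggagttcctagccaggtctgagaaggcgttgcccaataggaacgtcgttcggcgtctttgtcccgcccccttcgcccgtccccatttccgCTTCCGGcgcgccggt
Uqcrh and Atp5k were the genes with the most negative difference of complexes III and V, and Cox6a1 the gene with the most positive difference of complex IV. Of other genes with every Lyz2cre/+.Egr2fl/fl library below every Egr2fl/fl library, Atp5e, Sdhd and Cox6b1 had the ETS letters, while Atp5g3 and Uqcrc1 had no match. Ndufa3, Ndufa5, Ndufa13, Ndufc1, Ndufs4, Atp5a1 and Atp5c1 also separated in this way and were not among the genes with any of the letters searched. Cox6c, the gene past the threshold below, was among those with no matched window. A link between letters and differences was not tested.

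The subunit genes were strongly expressed in both genotypes. Their median level was 138 TPM, against 17.7 TPM for all genes tested, and together they made up 1.43% to 1.51% of the TPM of a library. Of the 83 genes, 76 had a mean of at least 20 TPM and 7 lay between 1.33 and 4.80 TPM. The highest were Atp5b, the catalytic beta subunit of ATP synthase, at 869 TPM, and Cox4i1, the common isoform of cytochrome c oxidase subunit 4, at 839.9 TPM. Subunits of 1 complex did not share 1 TPM level: in complex I they spread from 27.8 TPM for Ndufc1 to 275 TPM for Ndufa4 among the genes over 20 TPM. TPM depends on the gene lengths used, which were not checked, so this spread may not be one of mRNA. The same limit holds for rankings of genes by level below. Replicates were close, with a median coefficient of variation of 5.63% in Egr2fl/fl and 4.96% in Lyz2cre/+.Egr2fl/fl over the 83 genes.

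**Figure D1:**
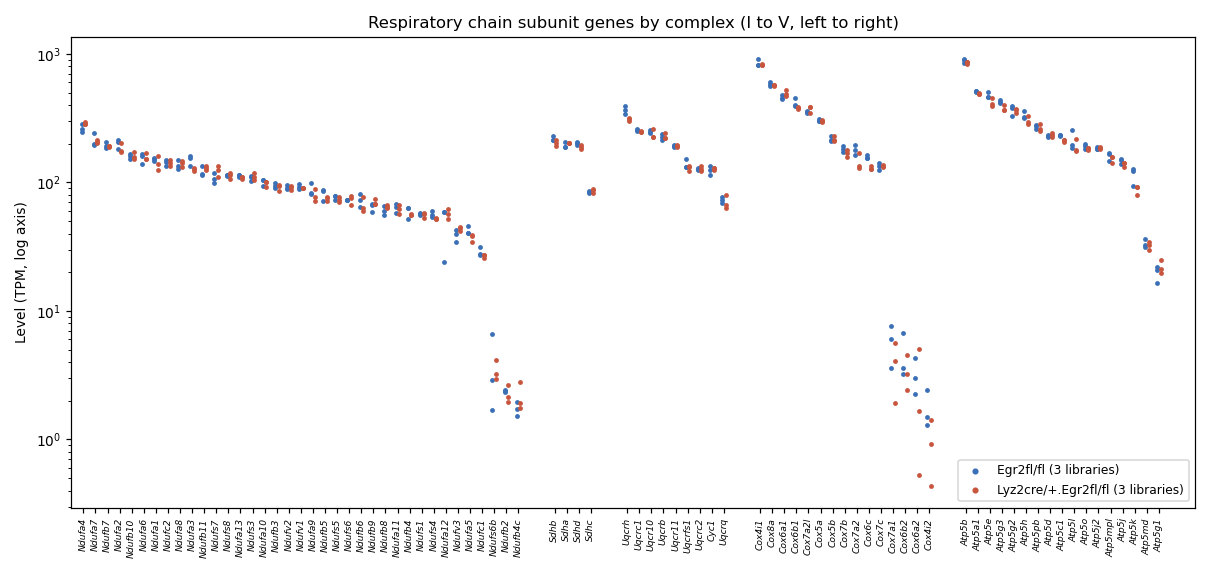
Level of 82 of the 83 subunit genes in TPM on a log axis, grouped by complex from I to V and ordered within a complex by mean level; each point is 1 library, blue for Egr2fl/fl and red for Lyz2cre/+.Egr2fl/fl, 3 libraries each. The points of a gene lie within a narrow band for most of the 75 drawn genes over 20 TPM, and Ndufa12 has the widest spread of these. Most of the 7 genes under 20 TPM scatter.

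Of the 83 subunit genes 1 passed the test of a difference between the genotypes, Cox6c, which was lower in Lyz2cre/+.Egr2fl/fl, and none was called higher. Over all 13777 genes tested the calls were 4.38% higher and 1.87% lower, so the share called lower among the subunit genes, 1.20%, was near the background. At an unadjusted p below 0.05 there were 8 genes lower and 0 higher, 9.64% lower against a background of 6.50% lower and 13.1% higher. The 3 libraries of a genotype did not overlap with the other 3 for 15 genes on the lower side, 18.1% against 8.27% of all genes, and for 0 genes on the higher side, against 17.0% of all genes.

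The differences were small and well bounded for most members. The 95% interval of the log2 difference lay within 0.5 of 0 for 73 of 83 genes (88.0%), against 51.2% of all genes tested, which have a lower median level. Of the 76 genes over 20 TPM, 72 had an estimate under 0.25 in size, and the 3 whose interval reached past 0.5 were Ndufa12, Cox7a2 and Atp5k. The sign leaned to the lower side: 55 of 83 genes (66.3%) had a log2 difference below 0, against 41.7% of all genes. The median was -0.04 (quartiles -0.12 and 0.02), and that of all genes 0.04 (quartiles -0.10 and 0.19), a gap of -0.08 on the log2 scale. With median-of-ratios scaling the median of all genes moved to -0.01 and that of the subunit genes to -0.09, and 71 of 83 were then below 0.

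**Figure D2:**
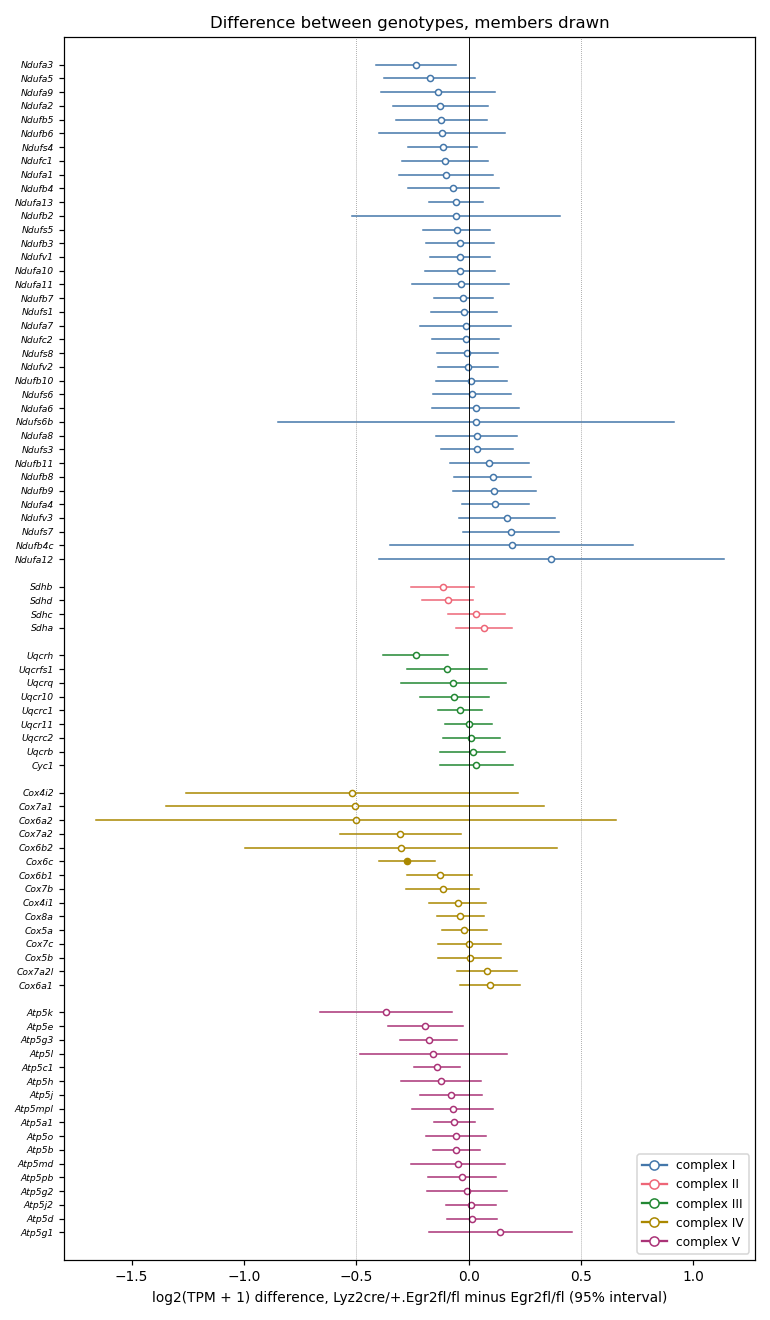
Log2(TPM + 1) difference of 82 of the 83 subunit genes, Lyz2cre/+.Egr2fl/fl minus Egr2fl/fl, with its 95% interval from limma; complexes are coloured and run from I at the top to V at the bottom, the filled point is the gene past the threshold and dotted lines mark differences of 0.5 in size. Cox6c is the filled point at -0.28, and 72 of the 82 intervals drawn stay between the dotted lines.

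Summed over its members, each complex was lower on average in Lyz2cre/+.Egr2fl/fl, from 0.621% for complex I to 6.01% for complex V. Complex V summed to 4732, 4760 and 4877 TPM in Egr2fl/fl and 4498, 4613 and 4395 TPM in Lyz2cre/+.Egr2fl/fl. Complex IV summed to 3807, 3898 and 3864 TPM against 3749, 3725 and 3765 TPM, a mean 2.86% lower. For these complexes the genotypes did not overlap. Complex I overlapped, at 3918, 3789 and 3839 TPM against 3840, 3837 and 3798 TPM, and so did complex II, 2.60% lower, and complex III, 4.45% lower. All 83 genes together gave 14928, 14828 and 15074 TPM against 14466, 14519 and 14289 TPM, a mean 3.47% lower. A sum is carried by its most abundant genes, and these values are given as a description.

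**Figure D3:**
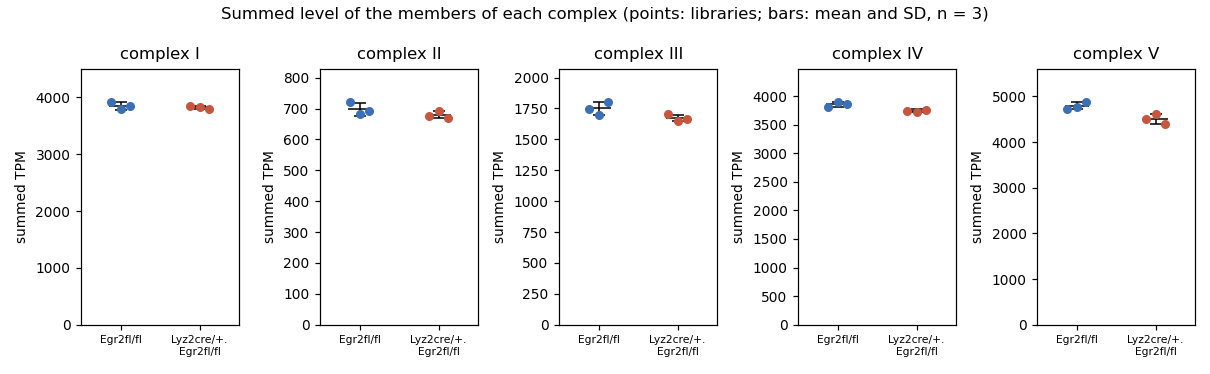
Summed TPM of the member genes of each complex, 1 panel per complex with its own axis from 0; points are libraries and bars the mean and SD of 3 libraries. The genotypes stand apart without overlap in complexes IV and V and overlap in complexes I, II and III.

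In complex I none of 38 genes passed the test, and 23 were below 0 and 15 above, with a median log2 difference of -0.02. Core subunits carry the flavin and the iron-sulfur clusters of the complex. Ndufv1, which binds NADH and the flavin, had a difference of -0.04 ± 0.06, and Ndufs1, the largest subunit, -0.02 ± 0.06. The genotypes overlapped for the core subunits Ndufs3, Ndufs8 and Ndufv2, whose estimates lay between -0.01 and 0.04. Ndufs7, which passes electrons on to coenzyme Q, read 118, 106 and 99.4 TPM in Egr2fl/fl and 111, 133 and 125 TPM in Lyz2cre/+.Egr2fl/fl, with overlap and a difference of 0.19 ± 0.09 (adjusted p = 0.313).

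The accessory subunit Ndufa3 (chromosome 7, bases 3617373 to 3620327, plus strand) had the most negative estimate of complex I. It was measured at 159.6, 134 and 154 TPM in Egr2fl/fl and 129, 128 and 123 TPM in Lyz2cre/+.Egr2fl/fl. Every Lyz2cre/+.Egr2fl/fl library was below every Egr2fl/fl library, though replicate 2 of Egr2fl/fl came within 5 TPM of the other genotype. The log2 difference was -0.23 ± 0.07 with an adjusted p of 0.136, and without that replicate it was -0.31 with an adjusted p of 0.0460, past the threshold. Exons of Ndufa3 overlap those of Tfpt on the opposite strand, and the sources used here do not state a strand setting for the counting, so its reads are uncertain. The genotypes also did not overlap for Ndufa5, Ndufa13, Ndufc1 and Ndufs4, at differences of -0.17, -0.06, -0.11 and -0.12, none past the threshold. Ndufa4, the most abundant gene under a complex I symbol and known as a subunit of complex IV by its protein, read 285, 261 and 246 TPM in Egr2fl/fl and 294, 282 and 282 TPM in Lyz2cre/+.Egr2fl/fl, an estimate of 0.12 ± 0.06 (adjusted p = 0.368). Leaving aside those and Ndufa12, the accessory subunits over 20 TPM had estimates from -0.14 for Ndufa9 to 0.17 for Ndufv3, with overlap in each.

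Ndufa12 (chromosome 10, bases 94198720 to 94221443, plus strand), an accessory subunit, had the most positive estimate of all members, and 1 library set it. It was measured at 58.7, 59.0 and 23.8 TPM in Egr2fl/fl and 61.6, 52.3 and 56.3 TPM in Lyz2cre/+.Egr2fl/fl. Replicate 3 of Egr2fl/fl was the low one, and the other 5 libraries lay between 52.3 and 61.6 TPM. The log2 difference of 0.37 ± 0.33 (adjusted p = 0.612) became -0.06 (adjusted p = 0.843) without that replicate. Its copy Ndufa12-ps ran the other way, at 33.7, 33.3 and 73.4 TPM in Egr2fl/fl and 38.7, 46.6 and 41.6 TPM in Lyz2cre/+.Egr2fl/fl. Gene and copy summed to 92.4, 92.3 and 97.3 TPM in Egr2fl/fl and 100.2, 98.9 and 97.9 TPM in Lyz2cre/+.Egr2fl/fl, so that their total varied little while the copy took 75.5% of it in replicate 3 of Egr2fl/fl and 36.1% to 47.1% in the other libraries. For the summed pair the difference was 0.07 ± 0.05 (adjusted p = 0.507). Since reads may be split between a gene and its copy, neither level is certain by itself.

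**Figure D4:**
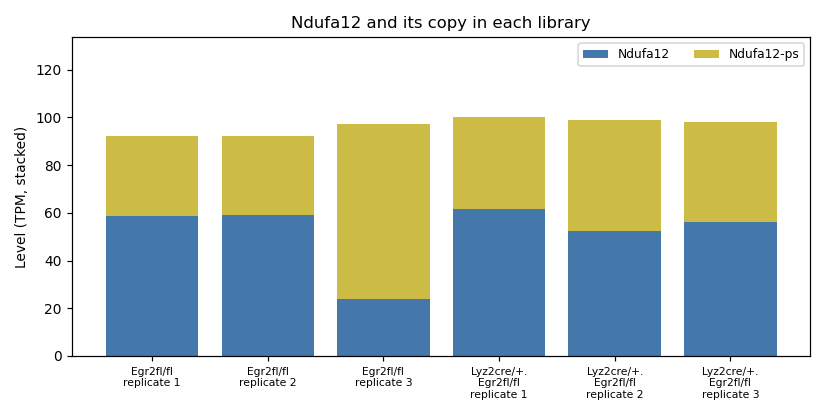
TPM of Ndufa12 and of its copy Ndufa12-ps stacked in each of the 6 libraries. The whole bar stays between 92.3 and 100.2 TPM, while the Ndufa12 part drops to 23.8 TPM in replicate 3 of Egr2fl/fl.

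That library had the largest share of deviating genes, by a wider margin among the subunit genes than among all genes. Among the 76 genes over 20 TPM, 11 (14.5%) lay more than 0.2 log2 units from their mean in replicate 3 of Egr2fl/fl. In each other library 1 to 4 genes did (1.32% to 5.26%). Over all 6487 genes above that level the shares were larger, 22.6% in this library and 14.0% to 18.0% in the others. Besides Ndufa12 the members concerned were Ndufa5, Ndufa7, Ndufa9, Ndufs7, Ndufv3, Uqcrh, Cox7a2, Atp5g1, Atp5k and Atp5l.

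Complex II has 4 subunits, all nuclear, and none passed the test. Sdha, the flavoprotein that oxidises succinate, was measured at 206, 189 and 187 TPM in Egr2fl/fl and 204, 202 and 203 TPM in Lyz2cre/+.Egr2fl/fl, an estimate of 0.07 ± 0.05. Sdhb, which holds the iron-sulfur clusters, was measured at 228, 213 and 215 TPM in Egr2fl/fl and 201, 213 and 190.4 TPM in Lyz2cre/+.Egr2fl/fl, an estimate of -0.12 ± 0.06. The groups overlapped for both genes, and their estimates had opposite signs. Sdhc and Sdhd anchor the enzyme in the membrane. Sdhc was measured at 85.8, 83.6 and 82.4 TPM in Egr2fl/fl and 88.0, 83.4 and 86.5 TPM in Lyz2cre/+.Egr2fl/fl, an estimate of 0.03 ± 0.05 that turned to -0.02 under median-of-ratios scaling. Sdhd was measured at 202, 196 and 207 TPM in Egr2fl/fl and 183, 194 and 189 TPM in Lyz2cre/+.Egr2fl/fl; its genotypes did not overlap, and the difference of -0.09 ± 0.05 had an adjusted p of 0.362. All 4 intervals lay within 0.5 of 0. Levels per length were close for Sdha, Sdhb and Sdhd, at 199, 210.1 and 195 TPM, and lower for Sdhc at 84.9 TPM.

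In complex III none of 9 genes passed the test, and the median difference was -0.04. Uqcrh, the hinge protein that sits by cytochrome c1, stood out as the most abundant gene of the complex and the most negative. Uqcrh (chromosome 4, bases 116066965 to 116075071, minus strand) was measured at 365, 343 and 394 TPM in Egr2fl/fl and 313, 302 and 319.6 TPM in Lyz2cre/+.Egr2fl/fl. The genotypes did not overlap, and the means were 367 ± 25.5 and 312 ± 8.96 TPM (SD, n = 3), 1.18-fold lower in Lyz2cre/+.Egr2fl/fl. Its log2 difference of -0.23 ± 0.06 had an adjusted p of 0.0778, which fell to 0.0453 under median-of-ratios scaling, with a difference of -0.29.

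The catalytic subunits of complex III had estimates nearer 0. Cyc1, cytochrome c1, was measured at 135, 125 and 114 TPM in Egr2fl/fl and 129.6, 129 and 124 TPM in Lyz2cre/+.Egr2fl/fl, and Uqcrfs1, the Rieske iron-sulfur protein, at 131, 132 and 153 TPM in Egr2fl/fl and 123, 132 and 134 TPM in Lyz2cre/+.Egr2fl/fl. Both overlapped between genotypes, with estimates of 0.04 ± 0.07 and -0.09 ± 0.08, and that of Cyc1 turned to -0.02 under median-of-ratios scaling and to -0.02 without replicate 3 of Egr2fl/fl. The core proteins Uqcrc1 and Uqcrc2 had estimates of -0.04 ± 0.04 and 0.01 ± 0.05, and the libraries of Uqcrc1 did not overlap, at 258, 255 and 251 TPM in Egr2fl/fl and 245, 249 and 249 TPM in Lyz2cre/+.Egr2fl/fl. Uqcrq, the lowest gene of the complex, was measured at 72.6, 69.0 and 77.4 TPM in Egr2fl/fl and 62.9, 79.9 and 66.7 TPM in Lyz2cre/+.Egr2fl/fl, with overlap and an estimate of -0.07 ± 0.10 that was 0.0024 without replicate 1 of Lyz2cre/+.Egr2fl/fl. The small accessory subunits Uqcr10, Uqcr11 and Uqcrb had estimates of -0.06 ± 0.06, 0.00 ± 0.04 and 0.02 ± 0.06. The intervals of all 9 genes stayed within 0.5 of 0.

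Complex IV held the 1 gene past the threshold. Cox6c (chromosome 15, bases 35925886 to 35938246, minus strand), a small nuclear subunit of cytochrome c oxidase, was measured at 163, 156 and 154 TPM in Egr2fl/fl and 128, 135 and 127 TPM in Lyz2cre/+.Egr2fl/fl. All 3 Lyz2cre/+.Egr2fl/fl libraries were below all 3 Egr2fl/fl libraries, with a gap from 135 to 154 TPM. The means were 158 ± 4.77 and 130.1 ± 4.49 TPM (SD, n = 3), 1.21-fold lower, and at least 2784 reads over the 6 libraries lay behind them. The log2 difference was -0.28 ± 0.05 (95% interval -0.40 to -0.15), and the adjusted p 0.0266.

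The call of Cox6c depended on the model and on the libraries. With all 6 libraries it was lost in limma without the mean-variance trend (adjusted p = 0.0991) and with the replicate number as a block (adjusted p = 0.0880), at the same difference. Leaving out 1 library at a time gave differences of -0.30 to -0.25, and the adjusted p stayed past the threshold only without replicate 2 of Lyz2cre/+.Egr2fl/fl, at 0.0410. In the other 5 such fits it was 0.0585 to 0.111 (without Egr2fl/fl replicates 3, 2 and 1 at 0.0585, 0.0717 and 0.0868, and without Lyz2cre/+.Egr2fl/fl replicates 3 and 1 at 0.0964 and 0.111).

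Cox7a2, the common isoform of subunit 7a, had the most negative estimate of the abundant complex IV genes. It was measured at 177, 164 and 195 TPM in Egr2fl/fl and 171, 130.1 and 135 TPM in Lyz2cre/+.Egr2fl/fl; replicate 1 of Lyz2cre/+.Egr2fl/fl fell among the Egr2fl/fl libraries. The estimate was -0.30 ± 0.11 with an adjusted p of 0.201. Cox7a2l, a gene of similar name, was measured at 347, 353 and 359 TPM in Egr2fl/fl and 389, 348 and 386 TPM in Lyz2cre/+.Egr2fl/fl. Its estimate was 0.08 ± 0.06. Thus 2 genes of this family had estimates of opposite sign, and neither passed the test. Cox6b1, which faces cytochrome c, did not overlap between genotypes, at 394, 403 and 455 TPM in Egr2fl/fl and 381, 385 and 375 TPM in Lyz2cre/+.Egr2fl/fl, with an estimate of -0.13 ± 0.06 (adjusted p = 0.315).

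The other abundant subunits of complex IV had estimates within 0.12 of 0. Cox4i1 was measured at 823, 918 and 823 TPM in Egr2fl/fl and 823, 831 and 822 TPM in Lyz2cre/+.Egr2fl/fl, and replicate 2 of Egr2fl/fl was its only high library; the estimate of -0.05 ± 0.05 was 0.0038 without it. Cox7b, Cox8a, Cox5a, Cox5b and Cox7c had differences of -0.12 ± 0.07, -0.04 ± 0.04, -0.02 ± 0.04, 0.01 ± 0.06 and 0.00 ± 0.06. Cox6a1, the common isoform of subunit 6a, was measured at 453, 449 and 477 TPM in Egr2fl/fl and 467, 484 and 524 TPM in Lyz2cre/+.Egr2fl/fl, with overlap and the most positive estimate of the complex, 0.10 ± 0.06. Its promoter is the one printed above with both the NRF1 and the ETS letters.

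Isoforms known for other tissues were scarce, which limits what can be read from them. Cox4i2, known from lung, was measured at 1.50, 2.43 and 1.29 TPM in Egr2fl/fl and 0.918, 1.43 and 0.433 TPM in Lyz2cre/+.Egr2fl/fl. Cox7a1 and Cox6a2, known from heart and skeletal muscle, were measured at 6.06, 3.58 and 7.61 TPM in Egr2fl/fl and 4.06, 5.60 and 1.91 TPM in Lyz2cre/+.Egr2fl/fl, and at 4.33, 2.25 and 2.99 TPM in Egr2fl/fl and 0.532, 1.65 and 5.02 TPM in Lyz2cre/+.Egr2fl/fl. Cox6b2, known from testis, was measured at 6.76, 3.62 and 3.21 TPM in Egr2fl/fl and 2.44, 4.55 and 3.23 TPM in Lyz2cre/+.Egr2fl/fl. Each overlapped between genotypes, and their estimates were -0.52 ± 0.31, -0.51 ± 0.36, -0.50 ± 0.49 and -0.30 ± 0.30, with adjusted p from 0.438 to 0.652. These estimates moved with single libraries. With 1 library left out, Cox4i2 ran from -0.70 to -0.32 (the latter without replicate 3 of Lyz2cre/+.Egr2fl/fl) and Cox7a1 from -0.77 to -0.18 (without the same library). Cox6a2 ran from -1.03 without replicate 3 to -0.04 without replicate 1 of Lyz2cre/+.Egr2fl/fl, and Cox6b2 from -0.48 to -0.03, the latter without replicate 1 of Egr2fl/fl. Exons of Cox6a2 overlap those of the integrin gene Itgad on the opposite strand. In TPM the common isoforms were far above them: Cox4i1 averaged 839.9 TPM and Cox4i2 1.33 TPM, Cox6a1 476 and Cox6a2 2.80 TPM, Cox6b1 399 and Cox6b2 3.97 TPM, and Cox7a2 162 and Cox7a1 4.80 TPM.

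The median difference of complex IV, -0.12, counts these scarce genes. With a filter of at least 5 TPM on average, which leaves them out, it was -0.04, and with 1 library left out it ran from -0.12 to -0.05. The remaining genes under 20 TPM were Ndufb2, at 2.42, 2.36 and 2.33 TPM in Egr2fl/fl and 2.15, 1.97 and 2.65 TPM in Lyz2cre/+.Egr2fl/fl, and the pseudogenes Ndufb4c and Ndufs6b, which rested on at least 13 and 21 reads over all 6 libraries. Exons of Ndufb2 overlap those of Braf and Gm16272 on the opposite strand and of Gm42420 on the same strand. Its low level, on at least 176 reads, is therefore uncertain. Ndufb4c was measured at 1.51, 1.96 and 1.74 TPM in Egr2fl/fl and 2.78, 1.92 and 1.75 TPM in Lyz2cre/+.Egr2fl/fl. Ndufs6b was measured at 1.69, 6.60 and 2.92 TPM in Egr2fl/fl and 4.16, 3.23 and 2.94 TPM in Lyz2cre/+.Egr2fl/fl. Neither gene separated the genotypes. Cox8b and Ndufa4l2, further isoforms of this kind, were not analysed here.

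Complex V leaned furthest to the lower side by its sum, with 14 of 17 genes below 0 and a median difference of -0.06, yet none passed the test. Of the rotor, the gamma subunit Atp5c1 (chromosome 2, bases 10056016 to 10080510, minus strand) had close replicates, at 233, 231 and 236 TPM in Egr2fl/fl and 215, 212 and 208 TPM in Lyz2cre/+.Egr2fl/fl. The genotypes were apart by over 15 TPM, and the difference was -0.14 ± 0.04 (adjusted p = 0.129). Atp5e, the epsilon subunit of the rotor stalk, was measured at 462, 465 and 504 TPM in Egr2fl/fl and 391, 457 and 405 TPM in Lyz2cre/+.Egr2fl/fl. Its groups were apart by under 5 TPM, at replicate 2 of Lyz2cre/+.Egr2fl/fl, and the estimate was -0.19 ± 0.07 (adjusted p = 0.190). The delta subunit Atp5d, another part of the stalk, was measured at 233, 227 and 230.2 TPM in Egr2fl/fl and 225, 242 and 232 TPM in Lyz2cre/+.Egr2fl/fl, with overlap and an estimate of 0.02 ± 0.05.

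The c subunit, which forms the membrane ring of the rotor, is coded by 3 genes that give the same mature protein. Atp5g3 (chromosome 2, bases 73908447 to 73911326, minus strand) was measured at 440.0, 421 and 411 TPM in Egr2fl/fl and 363, 397 and 364 TPM in Lyz2cre/+.Egr2fl/fl, without overlap, an estimate of -0.18 ± 0.05 (adjusted p = 0.125). Atp5g2 was measured at 381, 389.8 and 327 TPM in Egr2fl/fl and 349, 375 and 365 TPM in Lyz2cre/+.Egr2fl/fl, with overlap, an estimate of -0.01 ± 0.08 that ran from -0.09 to 0.04 with 1 library left out. Atp5g1 was far lower, at 22.0, 20.8 and 16.5 TPM in Egr2fl/fl and 19.8, 24.7 and 21.1 TPM in Lyz2cre/+.Egr2fl/fl, an estimate of 0.14 ± 0.14, the most positive of complex V with all libraries, which was 0.02 without replicate 3 of Egr2fl/fl and 0.05 without replicate 2 of Lyz2cre/+.Egr2fl/fl. By TPM, Atp5g3 and Atp5g2 were thus the higher c subunit genes, with means of 399 and 364 TPM against 20.8 TPM for Atp5g1. The reads behind Atp5g3, Atp5g2 and Atp5g1 were at least 5021, 4613 and 1769, a smaller gap than in TPM. Their shares of the c subunit mRNA therefore depend on the gene lengths used for TPM, which were not checked.

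The catalytic head of ATP synthase is built from the alpha and beta subunits. Atp5a1, the alpha subunit, was measured at 503, 513 and 517 TPM in Egr2fl/fl and 489.6, 492 and 485 TPM in Lyz2cre/+.Egr2fl/fl. Its libraries did not overlap although the difference was only -0.06 ± 0.04 (adjusted p = 0.451). Atp5b, the beta subunit, was measured at 852, 915 and 889 TPM in Egr2fl/fl and 863, 856 and 837 TPM in Lyz2cre/+.Egr2fl/fl, with overlap and an estimate of -0.05 ± 0.04.

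Atp5k (chromosome 5, bases 108433244 to 108434448, minus strand), the e subunit at the interface of 2 ATP synthase units, had the most negative estimate of complex V. It was measured at 122, 93.9 and 127 TPM in Egr2fl/fl and 91.6, 92.9 and 79.1 TPM in Lyz2cre/+.Egr2fl/fl. The groups did not overlap, but replicate 2 of Egr2fl/fl was only about 1 TPM above the highest Lyz2cre/+.Egr2fl/fl library. The difference was -0.37 ± 0.13 (95% interval -0.66 to -0.07) with an adjusted p of 0.158, and without that replicate it was -0.50 with an adjusted p of 0.0365, past the threshold. Atp5l, the g subunit of the same interface, was measured at 185, 196 and 258 TPM in Egr2fl/fl and 216, 175 and 178 TPM in Lyz2cre/+.Egr2fl/fl, with replicate 3 of Egr2fl/fl high, and overlapped, with an estimate of -0.16 ± 0.14. The stator subunits Atp5pb, Atp5h, Atp5o and Atp5j had estimates of -0.03, -0.12, -0.06 and -0.08, all with overlap, and the small membrane subunits Atp5j2, Atp5md and Atp5mpl 0.01, -0.05 and -0.07, again with overlap.

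**Figure D5:**
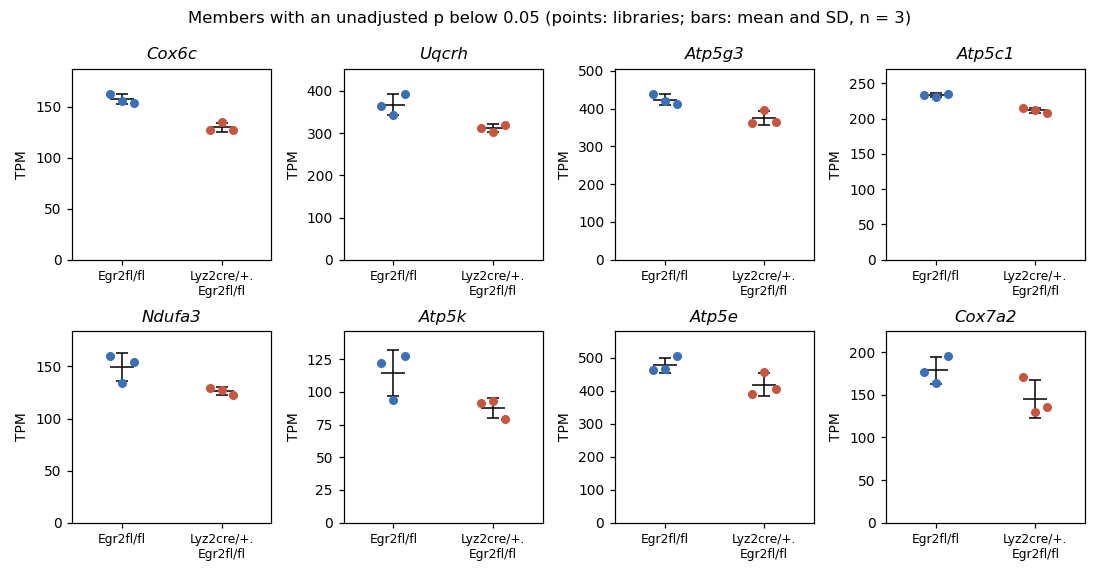
TPM of the 8 subunit genes with an unadjusted p below 0.05, 1 panel each with its axis from 0; points are libraries and bars the mean and SD of 3 libraries per genotype. All 8 genes are lower on average in Lyz2cre/+.Egr2fl/fl, by at most 1.30-fold (Atp5k), and of these only Cox7a2 overlaps between genotypes.

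Genes that build or serve the chain mostly did not pass the test either. Of 55 assembly factors 52 were tested and none passed the test. The background was 4.38% called higher and 1.87% lower over all genes tested. At that share short lists hold few calls or none, here and in the paragraphs that follow. Those with the smallest p for each complex were Ndufaf3 (log2 difference -0.23), Sdhaf1 (-0.48), Bcs1l (0.36), Taco1 (0.34) and Tmem70 (0.22), of which Taco1, a translational activator of the mitochondrial Cox1 mRNA, had the lowest adjusted p at 0.0992. Subunits and carriers outside the symbol pattern did not pass either: cytochrome c itself, Cycs, was measured at 42.9, 45.3 and 50.8 TPM in Egr2fl/fl and 43.3, 35.9 and 41.1 TPM in Lyz2cre/+.Egr2fl/fl (-0.21 ± 0.10), Ndufab1, the acyl carrier subunit of complex I, had a difference of 0.07 ± 0.12, and Atpif1, the inhibitor of ATP synthase, -0.07 ± 0.10. None of 13 coenzyme Q genes passed, with Coq2 the nearest at 0.23, nor did any of 13 TCA cycle genes, with Suclg2 the nearest at 0.28. The median differences of these 2 lists were -0.05 and -0.07, against 0.04 for all genes tested.

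Regulators of mitochondrial biogenesis did not pass the test in 15 of 15 genes. Nrf1, the factor whose letters were searched for in the promoters, was measured at 15.2, 13.7 and 12.6 TPM in Egr2fl/fl and 18.9, 15.1 and 17.7 TPM in Lyz2cre/+.Egr2fl/fl, an estimate of 0.30 ± 0.12 (adjusted p = 0.233). Gabpa, the DNA-binding part of GABP, had a difference of 0.12 ± 0.08, and Tfam, which packs and transcribes mitochondrial DNA, -0.05 ± 0.09. The smallest p of the list was that of Myc, at 0.34 ± 0.10 (adjusted p = 0.120).

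Around the chain 2 genes were past the threshold, beside a background of 4.38% called higher and 1.87% lower over all genes. Pdk4, the kinase that turns off pyruvate dehydrogenase, was the only one of 12 genes of pyruvate entry to pass, and it rose. It was measured at 1.01, 0.879 and 1.07 TPM in Egr2fl/fl and 4.36, 4.51 and 4.12 TPM in Lyz2cre/+.Egr2fl/fl, a log2 difference of 1.42 ± 0.19 (adjusted p = 0.00691), with no overlap and at a low level. Vdac2, a channel of the outer mitochondrial membrane, was the only one of 16 genes taken as signs of mitochondrial mass to pass, and it fell. It was measured at 295, 289.6 and 323 TPM in Egr2fl/fl and 243, 230.4 and 233 TPM in Lyz2cre/+.Egr2fl/fl, a difference of -0.36 ± 0.06 (adjusted p = 0.0136). None of 17 genes of mitochondrial fatty acid oxidation passed, with Cpt2, the inner membrane carnitine acyltransferase, nearest at 0.54 ± 0.14 (adjusted p = 0.0859). None of 8 antioxidant and uncoupling genes passed, with Sod2, the mitochondrial superoxide dismutase, nearest at -0.34 ± 0.12 (adjusted p = 0.179).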

How the data were processed

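Macrophages were sorted from the liver of CDA-HFD-fed mice, 3 libraries per genotype, and grouped by title. Per the labels total RNA came from an RNeasy Micro kit and went into a directional library kit. The methods keep that kit for another sort and give SMART-Seq HT with Nextera XT for sorted cells in general, so the sources disagree on the kit of these libraries. The authors trimmed reads (Trimmomatic 0.39.0), aligned them to GRCm38 (HISAT2 2.2.1), took out duplicates, assigned reads to genes (featureCounts 2.0.1) and deposited TPM. TPM is relative, so 1 gene can look lower when others are higher, and taking out duplicates can lower abundant genes. It also depends on the length counted for each gene, which was not checked, so levels of different genes compare less surely. The columns summed to 996893 to 997633. Whole reads were recovered from the TPM steps (100.0% of 13886 genes whole, tolerance 0.001 of a read). Their totals are lower bounds. They entered a test of these data only in a voom alternative and are otherwise quoted to show depth.

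The 13777 genes averaging 1 TPM or more were tested by limma 3.58.1 on log2(TPM + 1) (R 4.3.3; mean-variance trend, no covariates, 2-sided, Benjamini-Hochberg over all genes, threshold 0.05). This scale understates changes of low genes. Values after ± are the SD for TPM and the SE for log2 differences. Places were taken from GENCODE vM21 (GRCm38), where 80 members had 1 place and 20 of these shared exon bases with another gene, 18 on the opposite strand and 3 on the same. The named genes were each member past the threshold, the highest and lowest level and the extreme differences of each complex, paralogue sets, the Sdh genes, Egr2 and, for each pathway list, the genes past the threshold or else the smallest p; other genes were named after their values were seen. Members and lists were chosen with earlier results of these data known. The values of 1 subunit gene are not reported here and it is not drawn, though it is counted in the totals. Steps were tested on simulated data. Alternatives changed the pseudocount, filter, scaling, variance model, threshold, block and libraries.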

Additional observations from a re-analysis of the deposited data

How the results depend on the processing

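The count of subunit genes higher stayed at 0 under every alternative. The count lower, 1 with all libraries, was 2 with median-of-ratios scaling (Cox6c and Uqcrh), 0 with limma without trend, 0 at an adjusted p of 0.01 and 0 to 2 when 1 library was left out; without Egr2fl/fl replicate 2 the genes were Atp5k and Ndufa3 and not Cox6c. Cox6c was past the threshold in 13 of 20 fits, with adjusted p from 0.0169 to 0.111, and 0.0991 without the trend. Replicate numbers are those of the sample titles, and the data column of Egr2fl/fl replicate 3 carries another number. Libraries of the same replicate number did not deviate together (correlations -0.03, 0.07 and -0.01), so the numbers were not taken as pairs. Pairs of littermates cannot be read from these numbers. With a replicate block 0 subunit genes were lower and Cox6c had an adjusted p of 0.0880. The calls over all genes were then 301 higher and 130 lower, against 603 and 257. Over all genes the calls also went to 468 and 160 without the trend and 776 and 382 with voom, and leaving out 1 library gave 303 to 437 higher and 136 to 202 lower. Scaling moved medians: with median-of-ratios scaling they were -0.094 for all subunit genes and -0.070, -0.084, -0.094, -0.17 and -0.12 for complexes I to V, with the median of all genes at -0.01. With quantile normalization the medians were -0.059 for all subunit genes and -0.049 for complex I, and with voom -0.072 for all and -0.048, -0.062, -0.072 and -0.095 for complexes I, II, III and V. The median of complex IV was -0.036 at a mean of at least 5 TPM and -0.12 to -0.047 with 1 library left out. The difference of Egr2 kept its direction and its call throughout. Adding copies to their gene, chosen after seeing the data, changed no call. Precision is set by 3 libraries per genotype and, for the 7 genes under 20 TPM, by 13 to 176 reads in all.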

Other observations

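The 8 rows left out for -ps in their symbol were mostly low, but 3 were at levels of working subunit genes. Besides Ndufa12-ps these were Ndufb1-ps, at 46.4, 48.3 and 49.0 TPM in Egr2fl/fl and 50.7, 41.6 and 41.3 TPM in Lyz2cre/+.Egr2fl/fl, and Cox5b-ps, at 43.8, 55.0 and 60.9 TPM in Egr2fl/fl and 41.7, 38.4 and 39.4 TPM in Lyz2cre/+.Egr2fl/fl. Cox5b-ps did not overlap between genotypes, with a log2 difference of -0.40 ± 0.12 (limma, adjusted p = 0.123), while Cox5b itself was measured at 229, 209 and 214 TPM in Egr2fl/fl and 209, 231 and 215 TPM in Lyz2cre/+.Egr2fl/fl. Added to Cox5b, the sum was 271 ± 5.47 TPM in Egr2fl/fl and 258 ± 9.92 TPM in Lyz2cre/+.Egr2fl/fl (SD, n = 3), a difference of -0.07 ± 0.05 (adjusted p = 0.513). Ndufb1-ps had a difference of -0.11 ± 0.09 and overlapped. With the copy Atp5k-ps2 added, the difference of Atp5k was -0.39 ± 0.13 (adjusted p = 0.141).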
